A study of Mus musculus with 6 samples.

Results

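Nebulin, titin and 7 proteins of the Z-disc were followed at the RNA level in the gastrocnemius, the large calf muscle, of *Hras*G12V and wild-type mice. The 9 genes are *Neb*, *Ttn*, *Actn2*, *Flnc*, *Ldb3*, *Myoz1*, *Myot*, *Mypn* and *Nrap*. They were taken by gene symbol from the 23997 symbols listed in each library, and all 9 were among the 13359 genes with a mean of at least 0.5 FPKM that could be compared. FPKM counts mapped fragments relative to transcript length and to the library, after the authors' scaling between libraries. The set was chosen by its measured FPKM differences between these genotypes, so the members' own differences are given as a description and not as a test.

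Mice 2276, 2278 and 2279 were HrasG12V, and mice 2277, 2280 and 2281 were wild type (WT), with 1 library per mouse and n = 3 per genotype. HrasG12V mice were Caggs-Cre+ and heterozygous for the activated *Hras* allele (HrasG12V/+), which Cre, driven by a broadly active promoter, had switched on and which is transcribed from the gene's own locus. WT mice were Caggs-Cre- and carried the same allele still silenced by its floxed cassette (HrasflG12V/+), so Cre itself cannot be told apart from the activated allele. All mice were 21 days old, untreated, and of a mixed SWR/J, 129S1/SvImJ and C57BL/6J background. The mice are separate animals, described in the methods as littermates, and neither the labels nor the methods say which mice shared a litter. With 3 mice against 3, an exact two-sided permutation test on a single gene cannot give a p under 0.1.

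The sarcomere is the contractile unit of striated muscle. Z-discs mark its ends, where actin thin filaments of neighbouring sarcomeres are anchored and cross-linked by alpha-actinin. Nebulin lies along the thin filament of skeletal muscle and stabilises its length, whereas titin spans from the Z-disc to the M-band, centres the thick filament and gives passive elasticity. The other members connect alpha-actinin, filamin C and actin to each other and to signalling proteins at the Z-disc, and several of them are known from inherited myopathies of human muscle.

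Before the values of the members, some facts on the libraries bear on them. The sum of FPKM was 814013 in HrasG12V mouse 2276 and 413020 to 547122 in the other 5 libraries. *Hras* itself had an FPKM of 36.0 to 51.8 in WT mice, of 58.8 in HrasG12V mouse 2276 and of 28.9 in mouse 2278, with a lower value in mouse 2279, and FPKM does not separate the 2 alleles. Muscle fibre genes were abundant, with a summed FPKM of 34850 to 90400 over 10 marker genes, although *Acta1*, *Myh4* and *Atp2a1* were listed at 0 in all 6 libraries and *Ckm* in 5 of 6. A 0 for genes that every muscle fibre uses can be a failed estimate, so this sum misses different genes in different libraries: *Ckm* entered it only in mouse 2278, at 7165 FPKM, and *Tnnt3* was at 0 only in mouse 2276. The 8 markers of B and T lymphocytes, of which 6 were higher at an unadjusted limma p below 0.05, summed to 88.8 and 80.3 FPKM in HrasG12V mice 2278 and 2279, to 2.07 in mouse 2276, where *Ms4a1* and *Cd8a* were at 0, and to 1.19 to 1.59 in WT mice. Other cell types' markers moved as well, given here as the median difference from the WT mean on the log2 scale in mice 2276, 2278 and 2279. It was 0.78, 5.83 and 4.81 for neutrophil, 0.10, 1.71 and 1.85 for adipocyte and -0.23, 1.38 and 1.42 for Schwann cell markers, all highest in mice 2278 and 2279. Cardiac muscle markers, at 1.44, 0.64 and 0.14, were instead highest in mouse 2276, and smooth muscle and pericyte markers stood at -0.44, 0.34 and -0.30. The median difference was -1.83, 0.03 and -1.85 for tendon and fibroblast markers, which were low in mice 2276 and 2279. In bulk muscle fewer muscle fibres and less RNA per fibre cannot be told apart.

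*Neb* and *Ttn*, the genes of the giant filament proteins, were lower in every HrasG12V mouse than in every WT mouse. *Neb* (ENSMUSG00000026950.17, chr2:52136647-52378474 on the minus strand of GRCm38, longest annotated transcript 22.5 kb in 157 exons) had an FPKM of 367, 315 and 350 in WT mice 2277, 2280 and 2281 and of 206, 217 and 263 in HrasG12V mice 2276, 2278 and 2279. The groups did not overlap, and the highest HrasG12V value, in mouse 2279, lay below the lowest WT value. Means were 344 ± 26.6 (SD, n = 3) in WT and 229 ± 30.5 (SD, n = 3) in HrasG12V mice, a log2 fold change of -0.59 (SE 0.24), which as a fold is 33.8% lower. Without any 1 of the 6 mice the log2 fold change of *Neb* stayed between -0.70 and -0.52.

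*Ttn* (ENSMUSG00000051747.14, chr2:76703980-76982547 on the minus strand, longest annotated transcript 106.8 kb in 347 exons) had an FPKM of 239, 193 and 227 in the WT mice and of 153, 151 and 176 in the HrasG12V mice. These groups did not overlap either, and the 3 HrasG12V values lay closer together than the 3 WT values. Means were 220 ± 23.8 (SD, n = 3) in WT and 160 ± 13.8 (SD, n = 3) in HrasG12V mice, a log2 fold change of -0.46 (SE 0.22), which as a fold is 27.1% lower. Leaving out single mice gave -0.55 to -0.39.

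Of the 9 members, 2 therefore had no overlap between genotypes in the downward direction, where 10.4% of all genes tested had none, and 0 of 9 in the upward direction, where 8.11% had none. *Neb* was the 1 member with an unadjusted limma p below 0.05, a limit that 10.2% of all genes passed (4.99% lower and 5.18% higher). Without WT mouse 2277, 2280 or 2281, or without HrasG12V mouse 2278, no member passed it, with *Neb* at -0.55, -0.66, -0.58 and -0.56. In the full set 0 of 9 passed after Benjamini-Hochberg adjustment, against 8 genes or 0.0599% of all genes. Nothing is read from these counts, since the same contrast chose the genes. The log2 fold change was below 0 in 7 of 9 members with a median of -0.31, beside 53.4% of all genes and a median of -0.03.

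**Figure D1:**
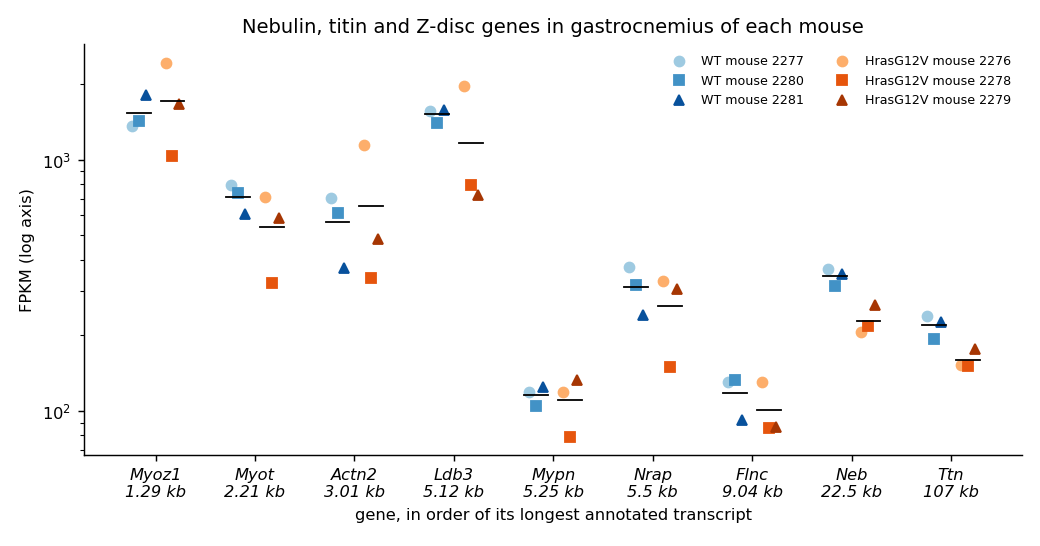
FPKM of the 9 genes in each of the 6 mice, on a log axis, with WT mice in blue and HrasG12V mice in orange and 1 point per mouse. *Neb* and *Ttn* are the 2 genes in which the colours separate, and in *Ldb3*, *Actn2* and *Myoz1* mouse 2276 is the highest point of all 6.

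Among the cross-linkers, neither gene separated the genotypes. *Actn2* (ENSMUSG00000052374.16, chr13:12269426-12340760 on the minus strand, longest transcript 3.01 kb) encodes alpha-actinin 2, a cross-linker of thin filaments at the Z-disc. Its FPKM was 703, 616 and 369 in WT and 1142, 338 and 482 in HrasG12V mice 2276, 2278 and 2279. Mouse 2276 had the highest value of all 6 and mouse 2278 the lowest, so the HrasG12V range enclosed the WT range, and the log2 fold change was 0.07 (SE 0.52). *Flnc* (ENSMUSG00000068699.12, chr6:29433256-29461883 on the plus strand, longest transcript 9.04 kb) encodes filamin C, an actin cross-linker at the Z-disc and the cell membrane. Its FPKM was 130, 132 and 91.8 in WT and 130, 85.5 and 86.2 in HrasG12V mice. HrasG12V mice 2278 and 2279 lay below all WT mice and mouse 2276 lay among them, with a log2 fold change of -0.24 (SE 0.27) that ran from -0.44 without mouse 2276 to -0.14 without mouse 2278.

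Among the genes of alpha-actinin and filamin partners, *Ldb3* differed most between HrasG12V mice. *Ldb3* (ENSMUSG00000021798.14, chr14:34526603-34588682 on the minus strand, longest transcript 5.12 kb) encodes the PDZ and LIM domain protein known as ZASP or Cypher, which binds alpha-actinin. Its FPKM was 1560, 1397 and 1581 in WT mice, and 1970, 791 and 725 in HrasG12V mice 2276, 2278 and 2279. Mice 2278 and 2279 had lower values than every WT mouse and mouse 2276 had a higher one. The log2 fold change was -0.54 (SE 0.47) over all mice, -0.996 (SE 0.13) without mouse 2276, -0.34 without mouse 2278 and -0.27 without mouse 2279. Markers of lymphocytes, neutrophils, adipocytes and Schwann cells were higher in the same 2 mice, 2278 and 2279, and their part in the *Ldb3* difference was not tested.

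*Myoz1* (ENSMUSG00000068697.7, chr14:20649107-20656540 on the minus strand, longest transcript 1.29 kb) encodes myozenin 1, or calsarcin 2, a fast-fibre protein that binds alpha-actinin, filamin C and calcineurin. Its FPKM was 1364, 1427 and 1802 in WT and 2428, 1035 and 1668 in HrasG12V mice, with mouse 2276 above and mouse 2278 below all WT mice, and its log2 fold change was 0.09 (SE 0.43). *Myot* (ENSMUSG00000024471.12, chr18:44334074-44355724 on the plus strand, longest transcript 2.21 kb) encodes myotilin, which cross-links actin and binds alpha-actinin and filamin C. Its FPKM was 791, 736 and 608 in WT and 712, 323 and 587 in HrasG12V mice. Mice 2278 and 2279 were below every WT mouse and mouse 2276 was within the WT range (log2 fold change -0.46, SE 0.38). Without mouse 2278 the *Myot* value was -0.13 and without mouse 2276 it was -0.70.

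*Mypn* (ENSMUSG00000020067.8, chr10:63115795-63203952 on the minus strand, longest transcript 5.25 kb) encodes myopalladin, which links nebulin and alpha-actinin at the Z-disc. Its FPKM was 119, 105 and 125 in WT and 119, 79.2 and 133 in HrasG12V mice, so that mouse 2278 lay below and mouse 2279 above the WT range (log2 fold change -0.11, SE 0.26). *Nrap* (ENSMUSG00000049134.15, chr19:56320035-56390037 on the minus strand, longest transcript 5.501 kb) encodes a nebulin-related protein that anchors actin and takes part in myofibril assembly. Its FPKM was 373, 318 and 240 in WT and 329, 150 and 305 in HrasG12V mice, and again only mouse 2278 was below all WT mice (log2 fold change -0.31, SE 0.38, and 0.05 without mouse 2278). *Nrap* overlaps the gene *Habp2* on the opposite strand, which had a mean of 0.225 FPKM, and whether the authors counted by strand is not stated in the sources used here.

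Mouse 2278 was thus below the WT mean in all 9 members, by -1.13 on the log2 scale for *Myot* and -1.02 for *Nrap* down to -0.45 for *Flnc*. In mouse 2276 the differences from the WT mean ran from 1.07 for *Actn2* to -0.74 for *Neb*, and *Neb* and *Ttn* were the 2 members below it. Relative to their means, HrasG12V mice varied most in *Actn2*, with a coefficient of variation of 65.5%, and in *Ldb3*, with 60.3% against 6.67% in WT mice. The coefficient of variation of *Neb* and *Ttn* was 13.4% and 8.65% in HrasG12V mice, the lowest among the members.

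On the FPKM scale, which is per length of transcript, the levels of the members spread widely. Mean FPKM in WT mice descended in the order *Myoz1* (1531), *Ldb3* (1513), *Myot* (712), *Actn2* (563), *Neb* (344), *Nrap* (311), *Ttn* (220), *Flnc* (118) and *Mypn* (116). Neighbours whose WT ranges overlapped, and whose order is therefore not settled, were *Myoz1* and *Ldb3*, *Myot* and *Actn2*, *Neb* and *Nrap*, and *Flnc* and *Mypn*. In HrasG12V mice *Neb* (229) came after *Nrap* (261), again with overlapping ranges, and the ranges of *Neb* and *Ttn* (160) did not overlap in either genotype.

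Since *Neb* and *Ttn* have the longest transcripts of the set, their values were set beside those of other long transcripts. Over 13257 genes with a known transcript length, the deviation of log2(FPKM + 0.1) from the mean of the 6 libraries changed per doubling of the longest transcript by 0.055 to 0.064 in WT mice. The slope was -0.138 in HrasG12V mouse 2276, -0.024 in mouse 2278 and -0.018 in mouse 2279. In mouse 2276 the median difference from the WT mean was 0.74 for 961 genes with transcripts under 1 kb and -0.63 for 666 genes of 8 to 16 kb. In mice 2278 and 2279 all class medians lay between -0.17 and 0.01. By these class medians long transcripts were low against short ones in mouse 2276, and nearly level in the other 2 HrasG12V mice. By slope, mice 2278 and 2279 also lay below the WT mice, so the 2 measures differ for them. The slopes are taken from a mean that includes mouse 2276, so the values of the other libraries depend on that mouse.

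Set against the 692 genes with transcripts of 8 kb or more, *Neb* and *Ttn* lay near the middle in mouse 2276 and toward the low end in the other 2, but among the 26 genes of 16 kb or more they lay toward the low end in all 3. The median of these 692 genes was -0.62 in mouse 2276, -0.10 in mouse 2278 and 0.01 in mouse 2279. *Neb* was -0.74, -0.66 and -0.38 from the WT mean in mice 2276, 2278 and 2279, and 39.9%, 6.79% and 14.7% of the 692 genes were lower than it. *Ttn* was -0.52, -0.53 and -0.32 from the WT mean, with 56.9%, 11.4% and 18.9% of the genes lower. In the class of 16 kb or more the median was -0.39, -0.17 and -0.01 in mice 2276, 2278 and 2279, and 19.2%, 15.4% and 15.4% of its genes were lower than *Neb* and 26.9%, 23.1% and 26.9% lower than *Ttn*. Every HrasG12V mouse was below every WT mouse in 148 of the 692 genes (21.4%), and in 7 of the 26 genes of 16 kb or more (26.9%), which include *Neb* and *Ttn*. *Flnc*, with a transcript of 9.04 kb, was 0.16 above the WT mean in mouse 2276, where 91.8% of the long genes were lower, and -0.45 and -0.43 from it in mice 2278 and 2279.

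**Figure D2:**
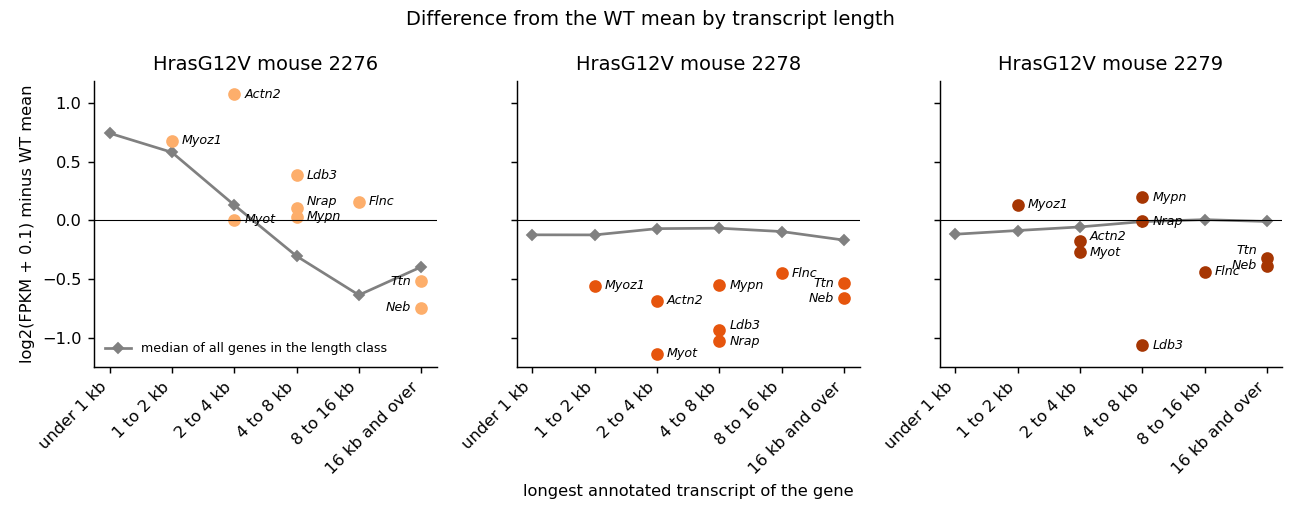
Difference of each HrasG12V mouse from the mean of the 3 WT mice, on the log2(FPKM + 0.1) scale, against the length class of the longest annotated transcript, with the median of all genes as a grey line and the members as points. The grey line falls from 0.74 to -0.63 in mouse 2276, with -0.39 in the longest class, and is nearly flat in mice 2278 and 2279, and *Neb* and *Ttn* lie below it in all 3 mice.

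When each library's trend over transcript length was removed by a loess curve, the *Neb* difference fell to -0.36 (SE 0.22) and that of *Ttn* to -0.25 (SE 0.18). In mouse 2276 *Neb* was then -0.00 and *Ttn* -0.02 from the WT mean, while mouse 2278 stood at -0.65 and -0.46 and mouse 2279 at -0.43 and -0.28. Before removal *Neb* and *Ttn* were -0.74 and -0.52 in mouse 2276, where the median of the 26 genes of 16 kb or more was -0.39. The curve thus took more from both than that median, and few genes of their length lie under it. The non-overlap of *Neb* and *Ttn* ended with this setting, and *Myot* became the member without overlap. Without mouse 2276 the log2 fold change of *Neb* was -0.52 as deposited and -0.55 with the trend removed, and that of *Ttn* was -0.42 and -0.37. Without that mouse all 9 members were lower, with a median of -0.44 beside -0.07 for all genes, and 3 of 9, all lower, had an unadjusted limma p below 0.05 where 29.8% of all genes did and 17.4% did so on the lower side.

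**Figure D3:**
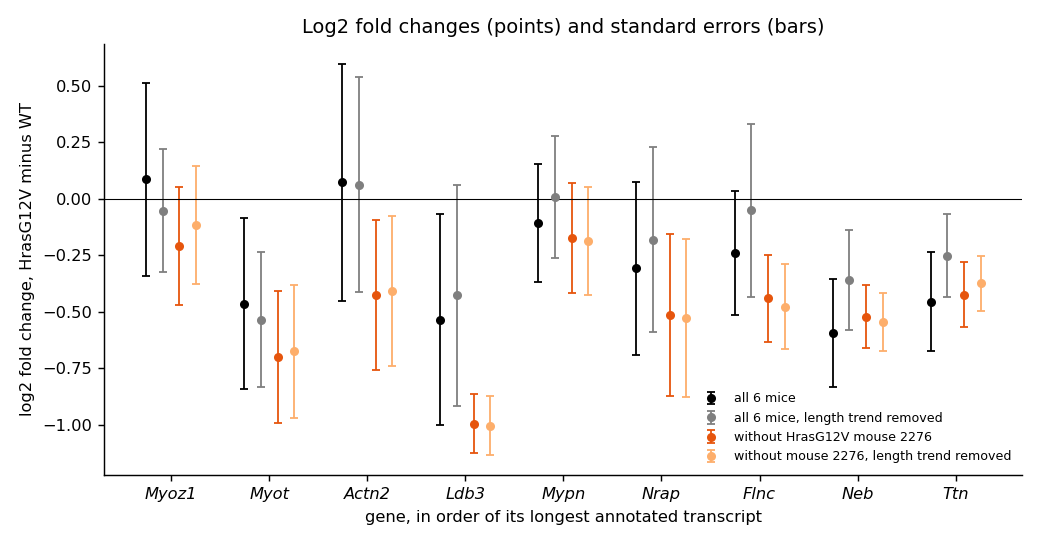
Log2 fold change of each member, HrasG12V minus WT, in all mice, with the trend over transcript length removed, without mouse 2276, and with both changes, with bars of 1 SE. *Neb* and *Ttn* stay below 0 in each, at -0.59 to -0.36 and -0.46 to -0.25, whereas *Actn2* and *Myoz1* change sign without mouse 2276.

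Within a library, *Neb* and *Ttn* were also compared with each other. The ratio of *Neb* to *Ttn* FPKM was 1.54, 1.63 and 1.54 in WT and 1.34, 1.44 and 1.497 in HrasG12V mice. The ratio was lower in every HrasG12V mouse, with a difference of -0.14 on the log2 scale. The median level of 37 thin and thick filament genes with no library at 0 was itself 174, 144 and 142 FPKM in WT and 266, 157 and 224.5 in HrasG12V mice, a log2 difference of 0.47 that enters every ratio to it. Against this median *Neb* stood at 2.11, 2.19 and 2.46 in WT and at 0.773, 1.39 and 1.17 in HrasG12V mice, and *Ttn* at 1.38, 1.34 and 1.59 against 0.575, 0.965 and 0.784. The groups also did not overlap for *Ldb3* (-1.001), *Myot* (-0.93), *Nrap* (-0.77), *Flnc* (-0.71) and *Mypn* (-0.57), so that 7 of 9 members were lower in every HrasG12V mouse against this reference, as were 30.7% of all genes tested. *Neb* was at -1.06 and *Ttn* at -0.92 on this log2 ratio scale, of which 0.47 is the higher reference and not a fall of the members. Mouse 2276 was lowest in the ratios of *Neb* and *Ttn* and also had the strongest trend over transcript length, whose part in them was not tested.

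The closest profiles to *Neb* over the 6 libraries were sought as the smallest root mean square difference of centred log2(FPKM + 0.1). They belonged to *Fmo5*, *Phtf2*, *Fbxo40*, *Ralgapa1* and *Thrb*, at 0.043 to 0.065, with longest transcripts of 4.84 to 8.84 kb. *Fbxo40* encodes a muscle F-box protein and *Thrb* a thyroid hormone receptor. *Ttn* came at rank 18 for *Neb*, at 0.087, and *Mypn*, the next member, at 0.316. The 5 closest to *Ttn* were *BC068281*, *Bbs7*, *Gphn*, *Arl6ip6* and *Fas*, at 0.038 to 0.065, and *Neb* came at rank 30. These are likenesses over 6 libraries that share their scaling and their trend over length.

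Among 29 other Z-disc genes tested, 3 fell and 0 rose at an unadjusted limma p below 0.05, where 4.99% of all genes fell and 5.18% rose. The median log2 fold change of this list was -0.12. These lists, like the members, were drawn up with earlier results known. *Xirp2*, an actin-binding repeat protein of striated muscle, had an FPKM of 216, 179 and 254 in WT and 152, 133 and 117 in HrasG12V mice, with no overlap. Its log2 fold change was -0.68 (limma adjusted p = 0.465), and its longest transcript is 11.98 kb. *Synpo2*, or myopodin, a Z-disc actin-bundling protein with a transcript of 9.20 kb, fell from 89.2, 91.0 and 98.7 to 56.4, 64.7 and 66.0 (log2 fold change -0.58, limma adjusted p = 0.433). *Sorbs2*, an adaptor of actin and vinculin, was at 4.58, 5.90 and 6.46 in WT and at 1.62, 2.995 and 3.52 in HrasG12V mice (log2 fold change -1.09, limma adjusted p = 0.398). With the length trend removed *Xirp2* was at -0.47 and *Synpo2* at -0.39, and neither passed the unadjusted limit. *Sorbs2* kept its call without each single mouse but lost it with libraries rescaled to the same total FPKM (-1.09). *Synpo2* lost it with that rescaling (-0.59), with quantile normalization (-0.54) and without WT mouse 2281 (-0.53), and *Xirp2* without WT mouse 2277 (-0.68), WT mouse 2281 (-0.56) or HrasG12V mouse 2279 (-0.59).

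At the other end of the Z-disc list, *Ankrd2*, a stretch-responsive titin-binding protein, had the highest log2 fold change, 1.05, but its FPKM was 93.8, 102 and 36.1 in WT and 295, 74.6 and 141 in HrasG12V mice. The same lowest and highest mouse recurred in *Myoz2* and *Csrp3*, chosen here after their values were seen for their likeness to *Actn2*. *Myoz2* was at 214, 190 and 46.1 in WT and 455, 99.2 and 209 in HrasG12V mice, and *Csrp3* at 136, 115 and 28.5 against 283, 86.1 and 131. WT mouse 2281 was the lowest and mouse 2276 the highest of all 6 in each of these 3 genes. WT mouse 2281 was also the lowest in *Tnnc1*, the slow troponin C, at 3.63 FPKM against 143 and 144 in the other WT mice. *Actn3*, the fast-fibre alpha-actinin, was instead highest in WT mouse 2281, at 3322 FPKM, and lowest in mouse 2278, at 1566.

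**Figure D4:**
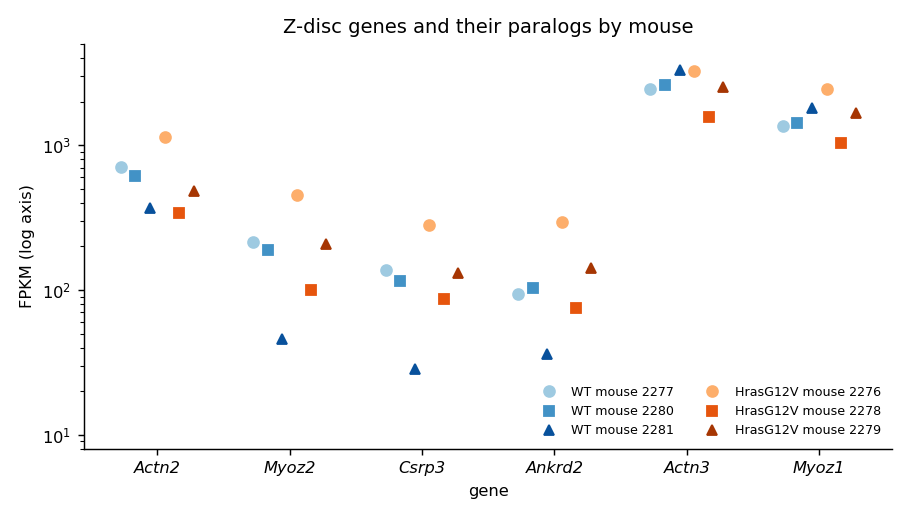
FPKM on a log axis of *Actn2*, *Myoz2*, *Csrp3*, *Ankrd2*, *Actn3* and *Myoz1*, with 1 point per mouse. WT mouse 2281 has the lowest of all values in *Myoz2*, *Csrp3* and *Ankrd2* and the highest in *Actn3*, at 3322 FPKM, and mouse 2276 has the highest value in *Actn2*, *Myoz2*, *Csrp3*, *Ankrd2* and *Myoz1*.

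Of 18 thin filament genes tested, 1 fell and 1 rose at an unadjusted limma p below 0.05, around a median of 0.01. *Tmod1*, the cap of the pointed end of thin filaments, was at 70.5, 66.0 and 90.7 in WT and 56.8, 55.5 and 45.1 in HrasG12V mice (log2 fold change -0.52, limma adjusted p = 0.488). *Tpm3*, the slow-fibre tropomyosin, rose (log2 fold change 1.55, limma adjusted p = 0.481), with 79.0, 89.8 and 20.3 in WT and 188, 105 and 184 in HrasG12V mice. *Tpm3* lost its call without WT mouse 2281, which had the lowest value (0.87), and without HrasG12V mouse 2276 (1.41), 2278 (1.82) or 2279 (1.42). *Tpm3* also lost it with array weights (1.14). *Tmod1* lost it without any 1 mouse but 2276, at -0.61 to -0.38, and with a filter of 1 FPKM (-0.52), median centring (-0.51), quantile normalization (-0.48) and the same total (-0.53). The fast troponin T gene *Tnnt3* was listed at 0 in mouse 2276 and at 6893 to 10420 FPKM elsewhere, and it gets no fold change here. Apart from *Tnnt3*, the log2 fold changes of the list ran from -1.10 for *Actc1*, the cardiac actin, to 2.82 for *Tnnc1*, and neither end passed the unadjusted limit. *Actc1* was at 2919, 1836 and 4302 in WT and 4343, 2217 and 245 in HrasG12V mice, with mouse 2279 far below all other mice. *Tnnc1* was at 143, 144 and 3.63 in WT and 517, 161 and 323 in HrasG12V mice, with WT mouse 2281 far below all other mice.

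Of 21 genes of the thick filament, the M-band and titin's partners, 0 fell and 0 rose at an unadjusted or adjusted limma p below 0.05. At the unadjusted limit 4.99% of all genes fell and 5.18% rose. The list's median log2 fold change was -0.19. *Myh1*, listed at 0 in WT mice 2277 and 2280, gets no fold change. The lowest log2 fold change was -0.63, for the myosin light chain kinase gene *Mylk2*. The highest apart from *Myh1* was 3.30, for *Myh7*, the slow myosin heavy chain, which had an FPKM of 96.5, 95.2 and 0.443 in WT and 197, 99.6 and 245 in HrasG12V mice. Every HrasG12V mouse was above every WT mouse, as in 8.11% of all genes, but *Myh7* did not pass the unadjusted limit, and WT mouse 2281 stood far below the other 5. Among 15 costamere genes, which link the Z-disc to the membrane, 0 passed in either direction. Their median was -0.25, from -0.56 for *Sgcd*, a sarcoglycan, to 0.23 for *Utrn*, or utrophin.

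Taking the 4 lists as 1 pool, 5 of 83 genes (6.02%) passed the unadjusted limit, beside 10.2% of all genes, and 0 the adjusted limit. Without mouse 2276 these counts were 27 of 83 (32.5%), 26 of them lower, and 6 at the adjusted limit, namely *Pdlim5*, *Synpo2*, *Ankrd23*, *Tpm2*, *Kbtbd13* and *Mybpc1*. The share of all genes at the unadjusted limit was then 29.8%, with 17.4% called lower, and 9.66% passed the adjusted limit. *Ldb3* was the 1 member with an adjusted limma p below 0.05 in that setting.

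As a yardstick for transcript length, 29 long genes used in many tissues were taken, with a median transcript of 13.8 kb. They were all shorter than the *Ttn* transcript of 106.8 kb and lower in FPKM than *Neb* and *Ttn*, and they are not confined to muscle fibres. They thus differ from *Neb* and *Ttn* in more than length. Of the 29 genes, 4 fell and 0 rose at an unadjusted limma p below 0.05, namely *Vps13c* (log2 fold change -0.63), *Zfhx3* (-0.52), *Herc2* (-0.48) and *Huwe1* (-0.43), and the highest was *Akap9* at 0.15. Among all genes 4.99% fell and 5.18% rose at that limit, and of the 666 genes of 8 to 16 kb 9.61% fell. *Huwe1*, a ubiquitin ligase, was at 28.4, 26.8 and 28.4 FPKM in WT and 17.9, 22.7 and 21.7 in HrasG12V mice. *Huwe1* and *Vps13c* lost the call without each single WT mouse, *Zfhx3* without WT mouse 2280 or 2281 or HrasG12V mouse 2278, and *Herc2* without any 1 mouse but 2279, all at -0.66 to -0.35. With libraries rescaled to the same total all 4 lost it, at -0.63 to -0.44, and with the length trend removed *Huwe1* (-0.20), *Herc2* (-0.26) and *Zfhx3* (-0.29) lost it while *Vps13c* (-0.42) kept it. *Huwe1* lost it with quantile normalization (-0.38) and *Herc2* with robust moderation (-0.48). The median of the list was -0.25, and -0.02 with the length trend removed. Both members lay within the range of the list, which ran from -0.63 to 0.15 as deposited and from -0.42 to 0.37 with the trend removed. On each of these scales 1 of the 29 genes, *Vps13c*, was lower than *Neb*, and 4 of 29 were lower than *Ttn*.

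**Figure D5:**
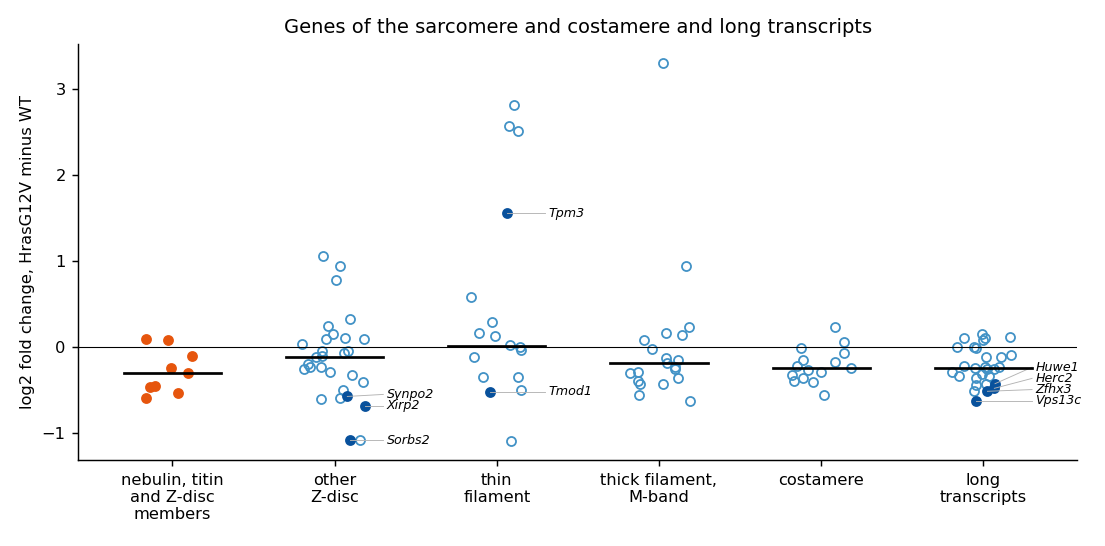
Log2 fold change, HrasG12V minus WT, of the members and of 5 lists of genes, with a bar at each list's median. Filled blue points, with names, had an unadjusted limma p below 0.05, and *Tnnt3* and *Myh1*, each listed at 0 in at least 1 library, are not drawn. The medians run from -0.31 for the members to 0.01 for the thin filament genes.

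Promoter sequence was read for members whose starts are in RefSeq (GRCm38.p6), which gave 8 windows for 6 of the 9 genes, each the 250 bases before the start. *Neb*, *Myoz1* and *Myot* were not analysed here. Shown are *Ttn*, which separated the genotypes, *Ldb3*, which was lowest in HrasG12V mice 2278 and 2279, and *Actn2*, in which mouse 2276 was highest. Sequences run 5′ to 3′ on the gene's strand, and capitals mark matches, on either strand, to the general E-box CANNTG of bHLH factors, the MEF2 motif or the CArG box of serum response factor. The windows are chr2:76982548-76982797, chr14:34588682-34588931 and chr13:12340733-12340982, all on the minus strand.
*Ttn*: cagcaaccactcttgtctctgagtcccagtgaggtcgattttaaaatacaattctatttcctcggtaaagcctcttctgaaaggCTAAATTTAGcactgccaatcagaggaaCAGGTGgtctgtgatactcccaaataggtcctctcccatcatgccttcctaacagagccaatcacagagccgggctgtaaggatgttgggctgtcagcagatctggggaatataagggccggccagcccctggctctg
*Ldb3*: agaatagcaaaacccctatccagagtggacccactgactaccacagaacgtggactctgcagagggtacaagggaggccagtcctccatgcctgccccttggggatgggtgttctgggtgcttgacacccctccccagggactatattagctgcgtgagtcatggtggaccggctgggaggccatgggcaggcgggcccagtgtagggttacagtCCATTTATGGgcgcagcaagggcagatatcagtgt
*Actn2*: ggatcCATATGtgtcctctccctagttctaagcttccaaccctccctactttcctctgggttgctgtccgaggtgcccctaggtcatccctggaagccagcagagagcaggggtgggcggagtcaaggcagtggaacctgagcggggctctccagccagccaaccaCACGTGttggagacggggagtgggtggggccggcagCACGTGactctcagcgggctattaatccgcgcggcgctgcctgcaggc
The *Ttn* window held a MEF2 match at position -166 and an E-box at -138 from the start. The *Ldb3* window held a CArG match at -35, and the *Actn2* window held 3 E-boxes. No 2 matches overlapped in these windows. Of 32851 promoter windows of the same length, 66.2% held an E-box, 2.92% a MEF2 match and 1.47% a CArG match. A match is a description of the letters and not a bound site.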

How the data were processed

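Stranded mRNA libraries of 6 snap-frozen gastrocnemius muscles had been sequenced with single-end reads. The authors deposited FPKM per gene symbol from Cuffnorm, after TopHat and Cufflinks, with GRCm38 (mm10) in the submitters' processing notes. Tool versions and annotation were not given in the sources used here. The methods state only a nominal read number per library, and the reads behind each FPKM are unknown. Low values did not fall on steps of whole reads (the fullest ratio class held at most 3.46% of low genes), so no count model was used, and precision is known only from the spread between mice. Values were taken as log2(FPKM + 0.1), which understates the change of low genes. Genes with a mean of at least 0.5 FPKM were fitted with limma 3.58.1 (R 4.3.3, trend over abundance, no covariate) and adjusted over all 13359 genes by Benjamini-Hochberg. Transcript lengths came from GENCODE on GRCm38 for 99.2% of these genes.

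The members and lists were chosen with earlier results of these data known. Named genes are the members, list genes with an unadjusted p below 0.05, the highest and lowest of each list, the 5 profiles closest to *Neb* and to *Ttn*, and *Hras*. *Myoz2*, *Csrp3*, *Actn3*, *Habp2* and the 6 genes past the adjusted limit without mouse 2276 were added after their values were seen. Ratios to *Acta1* and *Ckm* could not be computed, as these were listed at 0. *Hectd4* was not analysed here, and *Nebl* was below the filter. A result for 1 gene is not reported here. On simulated data of these 13359 genes the fit called, at an unadjusted p below 0.05, 75 to 83 of 100 genes changed 2-fold and 92 to 98 of 100 changed 4-fold. The simulated noise was equal in all mice and held no length trend, unlike these libraries, and the members' differences over all mice were smaller than 2-fold. Alternatives were pseudocounts of 1 and 0.01, other filters, 3 normalizations, removal of the length trend, robust moderation, array weights and leaving out each mouse. Tables and figures used matplotlib 3.10.9, numpy 2.4.6 and pandas 2.3.3 under Python 3.11.15.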

Additional observations from a re-analysis of the deposited data

How the results depend on the processing

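Of 153 values of the 9 members under 17 settings each, 124 kept their direction and side of the unadjusted limit and 11 reversed. *Neb* and *Ttn* stayed below 0 in every one. With the length trend removed *Mypn* was 0.0083 and *Myoz1* -0.053, and with array weights, which gave mouse 2276 a weight of 0.0933, *Myoz1* was -0.16 and *Actn2* -0.49. Without single mice *Actn2* ran from -0.43 (mouse 2276) to 0.45 and was -0.20 without WT mouse 2281, *Myoz1* ran from -0.21 (mouse 2276) to 0.41, *Mypn* from -0.26 to 0.12 (mouse 2278) and *Nrap* from -0.51 to 0.05 (mouse 2278), while *Ldb3* (-0.996 to -0.27), *Myot* (-0.70 to -0.13) and *Flnc* (-0.44 to -0.14) stayed below 0. Removing the length trend and mouse 2276 together, a setting chosen after seeing the data, gave *Actn2* -0.41, *Myoz1* -0.12 and *Nrap* -0.53, with 4 members, 26 sarcomere and costamere genes and 3899 of all genes at an unadjusted p below 0.05, and 1, 6 and 1246 at an adjusted one. Members at an unadjusted p below 0.05 numbered 1 in the reported fit, 0 with the length trend removed, 2 with robust moderation, 4 with array weights and 0 to 3 without single mice, and 0 to 1 passed the adjusted limit. *Neb* lost its p below 0.05 without any 1 of WT mice 2277, 2280 and 2281 or mouse 2278, with quantile normalization and with libraries rescaled to the same total, and in the last 2 settings *Ldb3* (-0.49 and -0.55) was the 1 member below it.

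Over all genes the 8 adjusted calls were 5 with a pseudocount of 1, 5 with robust moderation, 572 with array weights and 7 to 1291 without single mice. The 1358 unadjusted calls were 712 with libraries rescaled to the same total, 3042 with array weights and 606 to 3979 without single mice, the highest without mouse 2276. In the sarcomere and costamere lists, 5 unadjusted calls became 8 with the same total, 24 with array weights and 2 to 27 without single mice, and 0 adjusted calls became 2 with array weights and 0 to 6 without single mice. The slope of the log2 fold change over length was -0.120 per doubling and -0.096 with each gene's median transcript. The causes of these changes were not tested. No paired analysis was possible because the genotypes share no replicate numbers, which are mouse numbers, and no source says which littermates belong together. The reads behind each FPKM are unknown beyond a nominal depth, so no interval for counting error is given.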
